A study of Mus musculus with 6 samples.

Results

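Fibrinogen, haptoglobin, orosomucoid and related plasma protein genes were followed in NMuMG cells, a mouse mammary epithelial line, when the transcription factor gene Mnt was lowered under TGF-beta. The set held 10 genes: the fibrinogen chains Fga, Fgb and Fgg, haptoglobin (Hp), the vitamin D-binding protein Gc, the orosomucoids Orm1, Orm2 and Orm3, lipocalin 2 (Lcn2) and serum amyloid A3 (Saa3). All 10 were among the 14526 genes of the deposited table, and all 10 had a mean of at least 10 normalised reads over the 6 libraries, Fgg through the siMnt libraries alone and Orm2 through the siNTC libraries alone. They were selected with the values of this same comparison in view, so their values are given as a description, with no test. In the libraries from cells with lowered Mnt, the 3 fibrinogen chains and Hp were 6.54- to 15.2-fold higher in mean level than in control libraries, Gc was 2.66-fold higher, and the 3 orosomucoids were lower by 1.81- to 9.84-fold. Lcn2 and Saa3 overlapped between the groups.

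Acute-phase proteins are plasma proteins, made mainly by the liver, whose output changes in inflammation. Interleukin 6, acting through gp130 and STAT3, and interleukin 1, acting through NF-kB and C/EBP factors, are the classical inducers, and glucocorticoids add to both. Epithelia, the mammary gland among them, also express several of these genes, and Orm1, Lcn2 and Saa3 are well known outside the liver. Mnt is a repressor that pairs with Max and binds E-box sequences, as Myc does.

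Both groups of 3 libraries came from NMuMG cells given TGF-beta, which drives this line from an epithelial to a mesenchymal form, and both were taken on day 4. One group had received a non-targeting control siRNA (siNTC) and the other an siRNA against Mnt (siMnt). The siRNA and TGF-beta were started together 16 hours after plating and renewed on day 2. The labels name neither the siRNA sequences nor a clone, and libraries from untreated cells are not part of the data used here.

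The libraries held 22323050 to 42193291 reads on the genes of the table, and 12568 genes with a mean of at least 10 normalised reads were tested. Mnt was at 1316, 896 and 1596 normalised reads in siNTC and 613, 557 and 749 in siMnt, 50.4% of the control mean (log2 fold change -0.96 ± 0.22, adjusted p = 0.0546 by limma with Benjamini-Hochberg adjustment, or 0.00442 when the replicate number was a block). By limma 322 genes (2.56% of those tested) were higher and 172 (1.37%) lower in siMnt. Once trends with GC content and transcript length were removed, the split was 512 higher and 497 lower. With siNTC replicate 3 left out 2012 genes passed. The mean chi-square per gene between control libraries, which grows with depth, was 97.6 for replicates 1 and 2. It was 79.2 for 1 and 3 and 185.9 for 2 and 3. Over all genes, replicate 3 was thus no farther from replicate 1 than replicate 2 was. When siNTC replicate 1 was left out limma called 0 genes, as it did on leaving out siMnt replicate 1 or 2, and the unadjusted p was under 0.05 for 2193, 1816 and 1920 of them. Separate cultures are not stated in the labels, and p-values therefore measure the spread between these libraries, which may be technical. Values below are normalised reads for replicates 1, 2 and 3, means are ± SD (n = 3), and each log2 fold change is the siMnt mean minus the siNTC mean of log2(value + 1), ± SE.

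The promoters of the fibrinogen chains and of Orm2 and Orm3 are shown because these genes lie beside each other in 2 clusters that differed in opposite directions. RefSeq promoter sequences on GRCm38.p6 were found for 8 of the 10 genes and not for Hp and Orm1. Each is the 250 bases before the annotated start, 5' to 3' on the gene's strand: Fga at chr3:83025903-83026152 (plus), Fgb at chr3:83049864-83050113 (minus), Fgg at chr3:83007474-83007723 (plus), Orm2 at chr4:63362199-63362448 (plus) and Orm3 at chr4:63355908-63356157 (plus). Capitals mark matches, on either strand, to the consensus of C/EBP, STAT3 or the glucocorticoid receptor spelled out below.
Fga: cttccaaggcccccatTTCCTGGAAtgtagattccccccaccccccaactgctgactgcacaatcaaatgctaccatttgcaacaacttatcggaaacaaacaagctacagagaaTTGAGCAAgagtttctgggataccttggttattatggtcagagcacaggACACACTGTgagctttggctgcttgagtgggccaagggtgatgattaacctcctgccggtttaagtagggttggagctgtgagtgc
Fgb: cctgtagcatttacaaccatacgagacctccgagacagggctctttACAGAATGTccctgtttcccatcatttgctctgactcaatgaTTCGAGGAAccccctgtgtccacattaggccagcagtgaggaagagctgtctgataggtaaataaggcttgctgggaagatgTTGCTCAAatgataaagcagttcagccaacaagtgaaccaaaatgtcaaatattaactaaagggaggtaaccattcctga
Fgg: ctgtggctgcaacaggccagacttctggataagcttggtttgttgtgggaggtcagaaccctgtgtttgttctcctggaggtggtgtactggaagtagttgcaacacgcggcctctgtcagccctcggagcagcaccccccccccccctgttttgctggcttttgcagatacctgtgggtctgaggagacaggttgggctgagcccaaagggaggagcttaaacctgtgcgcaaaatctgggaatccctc
Orm2: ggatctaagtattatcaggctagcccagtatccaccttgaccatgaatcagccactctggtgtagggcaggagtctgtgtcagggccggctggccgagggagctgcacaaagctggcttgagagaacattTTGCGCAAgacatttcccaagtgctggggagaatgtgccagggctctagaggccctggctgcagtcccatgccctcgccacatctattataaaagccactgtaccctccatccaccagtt
Orm3: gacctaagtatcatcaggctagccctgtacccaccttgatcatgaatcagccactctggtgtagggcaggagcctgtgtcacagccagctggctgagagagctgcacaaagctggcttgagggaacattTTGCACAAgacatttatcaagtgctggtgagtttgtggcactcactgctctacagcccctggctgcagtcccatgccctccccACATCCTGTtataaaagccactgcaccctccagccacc

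The C/EBP consensus TTGCNNAA was found in 6 of the 8 promoters and in 9.56% of the 32851 promoters of the table. Its matches were TTGAGCAA in Fga, 135 bases before the start, TTGCTCAA in Fgb at 80, TTGCGCAA in Orm2 at 120, TTGCACAA in Orm3 at 121, TTGCTCAA in Lcn2 at 216 and TTATGCAA in Saa3 at 99. So this match was present both in genes that were higher in siMnt and in genes that were lower. The STAT3 consensus TTCNNNGAA, found in 7.02% of all promoters, occurred in Fga as TTCCTGGAA at 234 and in Fgb as TTCGAGGAA at 162. The half-site pair ACANNNTGT of the glucocorticoid receptor, found in 5.84% of all promoters, occurred in Fga, Fgb, Lcn2 and Orm3, at 86, 204, 152 and 38 bases. The Gc promoter held GTTAATGATT, a match to the HNF1 consensus (GTTAAT, any base, ATT), which 0.371% of all promoters hold. None of the 8 windows held the NF-kB consensus (GGGA and TTCC around any 2 bases, in 1.21% of all promoters) or the E-box CACGTG (6.02%), and the Fgg window held none of the 6 consensus sequences. Both strands were read, and no match overlapped that of another motif. A match is a description of letters and not of binding.

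Fibrinogen is the soluble precursor of the fibrin clot and is assembled from 3 chains, encoded by neighbouring genes on chromosome 3. Fgb, the beta chain, was at 51.5, 176 and 648 normalised reads in siNTC and 2106, 1894 and 1779 in siMnt. The siMnt libraries lay close together and all above the controls, whose replicate 3 was 5.69 times the mean of the other controls. The mean was 292 ± 315 in siNTC and 1926 ± 166 in siMnt (log2 fold change 3.40 ± 0.75). Fga, the alpha chain, was at 8.73, 25.5 and 82.7 in siNTC and 299.5, 222 and 243 in siMnt. The control order was again replicate 1 lowest and replicate 3 highest, and the groups did not overlap (mean 39.0 ± 38.8 and 255 ± 40.2, log2 fold change 3.19 ± 0.66). Fgg, the gamma chain, was scarce: it had 0, 2 and 6 reads in siNTC and 30, 28 and 22 in siMnt, or 0, 2.22 and 3.88 against 32.4, 33.4 and 27.0 normalised reads (log2 fold change 3.67 ± 0.63). In number 1, where the control had no read, the siMnt library was at least 12.4-fold higher, set against a floor of 3 reads in that library. In bulk RNA, a change in the number of cells that express a gene and a change in RNA per cell cannot be told apart, which holds for every gene here.

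Set per kilobase of transcript, so that levels can be compared between genes, the beta chain was the most abundant of the 3 in every library. Per kilobase, Fgb was at 76.6 ± 82.6 in siNTC and 506 ± 43.6 in siMnt, Fga at 18.7 ± 18.6 and 122 ± 19.3, and Fgg at 1.20 ± 1.15 and 18.3 ± 2.05. The makeup of the chain RNA differed little: Fgb was 78.0% ± 2.00 of the 3 chains in siNTC and 78.3% ± 1.30 in siMnt, and Fga was 21.0% ± 2.51 and 18.9% ± 1.57. The ratio of Fgb to Fga per kilobase was 3.76 ± 0.53 and 4.17 ± 0.43, a difference smaller than the spread between libraries. Fgg was 1.09% ± 1.09 and 2.83% ± 0.29, with 2 of the control values resting on under 3 reads. The chains are not confusable by sequence, since their transcripts shared no run of 50 bases.

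Haptoglobin binds free haemoglobin in plasma. Hp was at 31.4, 78.6 and 230.0 in siNTC and 1160.2, 956 and 658 in siMnt (mean 113 ± 104 and 925 ± 253, log2 fold change 3.42 ± 0.62). The groups did not overlap, and the controls had the order seen for fibrinogen, replicate 3 being 4.18 times the mean of replicates 1 and 2. Among the siMnt libraries replicate 3 was lowest. Gc carries vitamin D metabolites and binds actin released into plasma. Its normalised reads were 2587, 4070 and 5466 in siNTC and 11665, 10187 and 10396 in siMnt, again with no overlap (mean 4041 ± 1440 and 10749 ± 799.6, log2 fold change 1.47 ± 0.25). Among all 12568 tested genes ordered by rise, Fgg, Hp, Fgb, Fga and Gc ranked 7, 12, 14, 26 and 310.

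**Figure D1:**
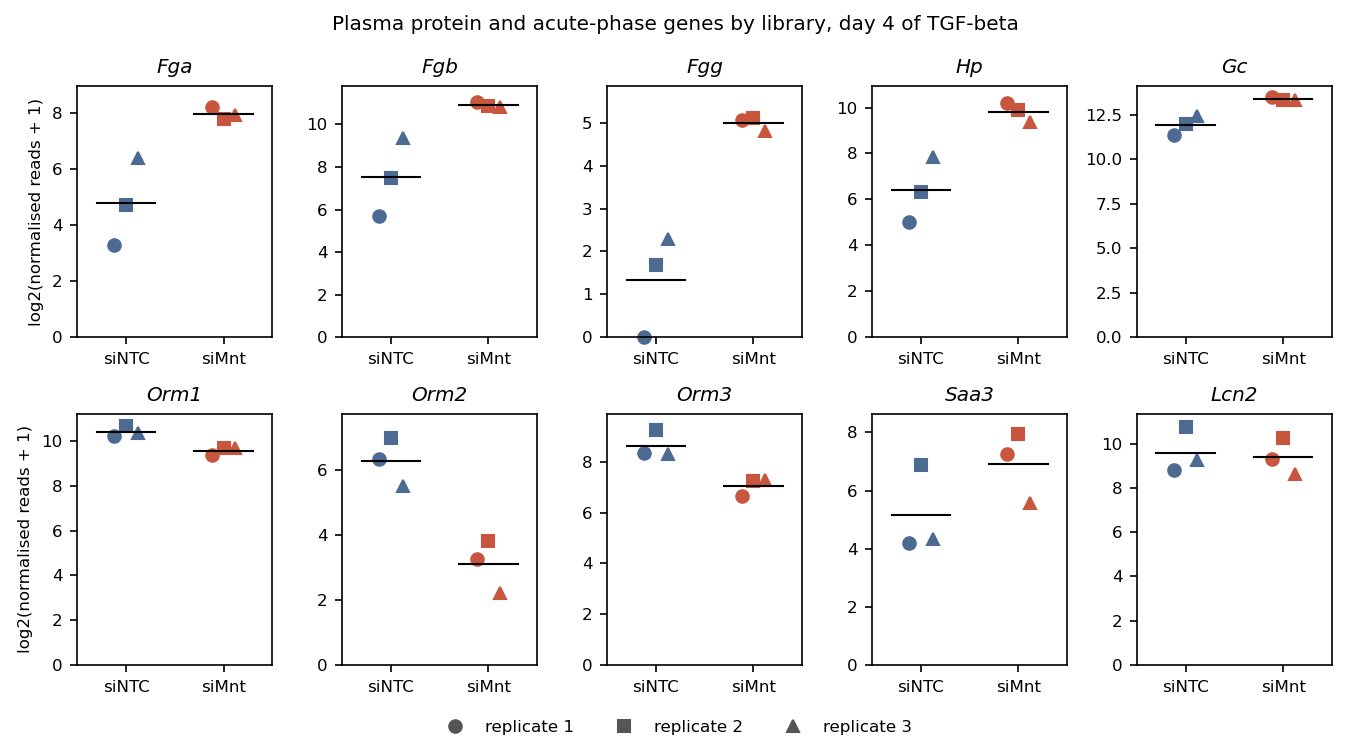
Each panel shows 1 gene on a log2(normalised reads + 1) axis, with siNTC and siMnt side by side, 1 point per library, the replicate number as the marker shape and a line at the group mean. Fga, Fgb, Fgg, Hp and Gc were higher in all 3 siMnt libraries than in any control, Orm1, Orm2 and Orm3 lower, and Lcn2 and Saa3 overlapped.

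The size of these differences depended on the control library. Within replicate numbers 1, 2 and 3, the log2 difference of Fgb was 5.33, 3.42 and 1.46, that of Fga 4.95, 3.07 and 1.54, that of Hp 5.16, 3.59 and 1.51, and that of Gc 2.17, 1.32 and 0.93. All were above 0, and number 3 gave the smallest for each of them. As a ratio, Fgb in siMnt was 40.9 times the control in number 1 and 2.75 times in number 3. On the log2 scale siNTC replicate 3 had covered 63.7% of the way from the other controls to siMnt for Fgb, 59.8% for Fga, 52.6% for Hp and 43.6% for Gc, and 34.8% for Fgg. This library did not have lowered Mnt: its 1596 normalised reads were the highest of the 6. Without it the log2 fold changes were 4.32 ± 0.43 for Fgb, 3.98 ± 0.41 for Fga, 4.15 ± 0.39 for Hp and 1.73 ± 0.19 for Gc. Why this library lay nearer to siMnt for these genes was not tested.

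**Figure D2:**
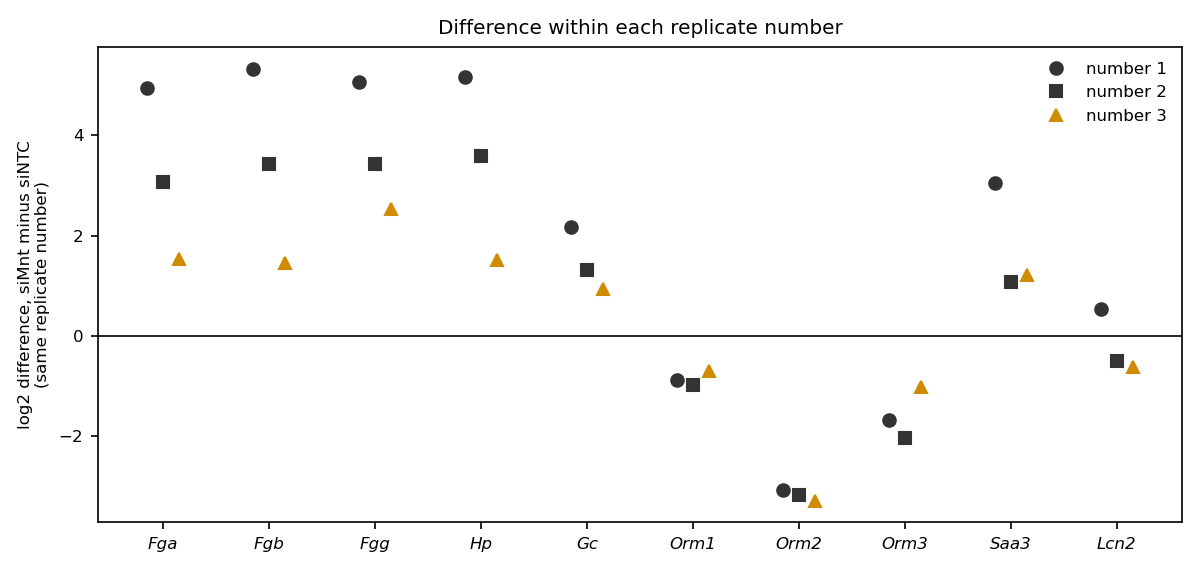
The log2 difference between siMnt and siNTC is shown for each gene within replicate numbers 1, 2 and 3, 1 point per number. For Fga, Fgb, Hp and Gc number 3 lies lowest of the 3, at 1.54, 1.46, 1.51 and 0.93, whereas for Orm2 the 3 points lie together between -3.28 and -3.06.

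Orosomucoid, the alpha-1-acid glycoprotein, binds basic drugs and modulates inflammation. The 3 mouse genes lie together on chromosome 4 in the order Orm1, Orm3, Orm2. Orm2 was at 79.5, 126 and 44.6 in siNTC and 8.65, 13.1 and 3.68 in siMnt, from 91, 114 and 69 reads against 8, 11 and 3. Every siMnt library lay below every control (mean 83.4 ± 41.0 and 8.48 ± 4.73, log2 fold change -3.17 ± 0.52). Orm3 was at 325, 615 and 317 in siNTC and 101, 149 and 156 in siMnt (log2 fold change -1.58 ± 0.30). Orm1, the most abundant of the 3, was at 1205, 1608 and 1311 in siNTC and 653, 814 and 811 in siMnt (log2 fold change -0.85 ± 0.16). The groups did not overlap for either gene. By fall among all tested genes Orm2, Orm3 and Orm1 ranked 15, 115 and 363.

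For the orosomucoids siNTC replicate 3 had covered 9.80% of the log2 way from the other controls to siMnt for Orm1, 28.3% for Orm3 and 32.4% for Orm2, less than for any of the 5 genes that were higher. Within numbers 1, 2 and 3 the log2 difference was -3.06, -3.17 and -3.28 for Orm2, -1.68, -2.04 and -1.02 for Orm3 and -0.88, -0.98 and -0.69 for Orm1. Their summed level was 1877 ± 410 normalised reads in siNTC and 903 ± 122 in siMnt. The makeup, taken per kilobase of transcript, differed. Orm1 was 73.9% ± 5.04 of the per-kilobase sum in siNTC and 84.2% ± 1.27 in siMnt. Orm3 was 21.8% ± 3.86 and 14.9% ± 1.48, and Orm2 4.32% ± 1.45 and 0.95% ± 0.51. These shares did not overlap between the groups.

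The orosomucoids are similar in sequence, and the sources used here do not give how reads matching more than 1 gene were treated, so the split between them is uncertain where they share sequence. Over whole transcripts (GENCODE M21 models) Orm1 and Orm2 were 91.0% identical, Orm2 and Orm3 88.0% and Orm1 and Orm3 86.1%. Of the runs of 50 bases in each transcript, 79.6% of those of Orm1, 78.2% of those of Orm2 and 96.4% of those of Orm3 occurred in no other member of the family, and Orm1 and Orm2 had 20.4% of theirs in common. The promoters of Orm2 and Orm3 were 85.5% identical, and the matches TTGCGCAA and TTGCACAA shown above lie at nearly the same distance from their starts.

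**Figure D3:**
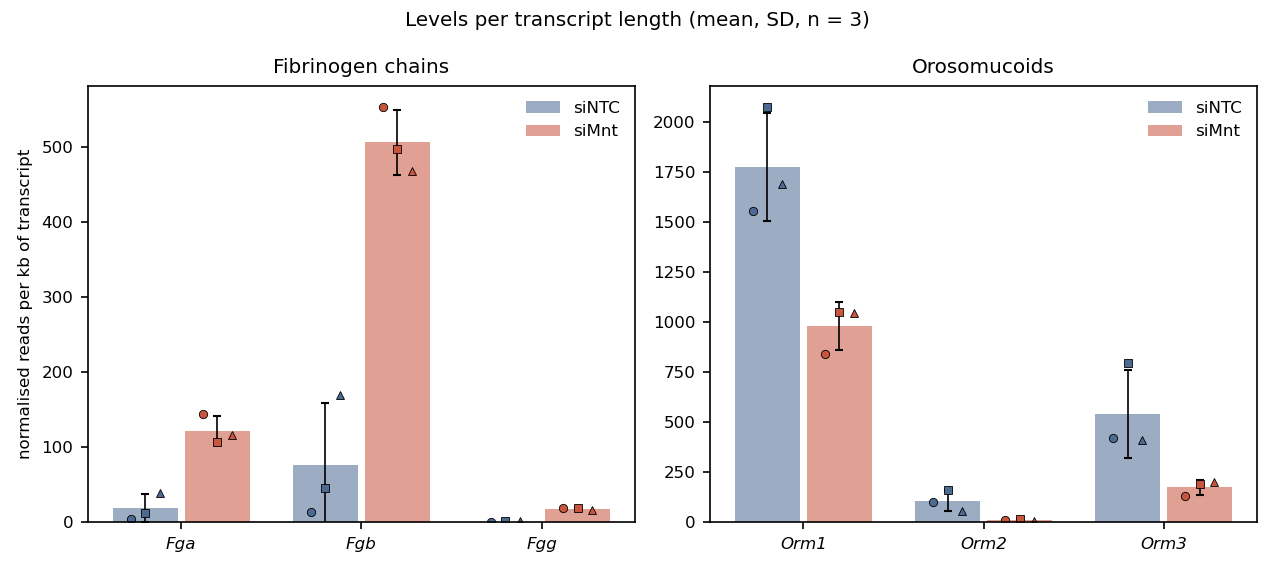
Bars give the mean level in normalised reads per kilobase of transcript for the fibrinogen chains and for the orosomucoids, with SD whiskers (n = 3) that are cut at 0, and circles, squares and triangles stand for replicates 1, 2 and 3. Fgb led the chains in both groups, at 76.6 and 506, and Orm1 led the orosomucoids.

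Lipocalin 2 withholds iron from bacteria by binding their siderophores, and Saa3 is the serum amyloid A made outside the liver. Lcn2 was at 442, 1714 and 607 in siNTC and 639, 1209.9 and 395 in siMnt (mean 921 ± 692 and 748 ± 418, log2 fold change -0.20 ± 0.54), a difference smaller than the spread between libraries. Its direction was not stable, being 0.38 without siNTC replicate 2 and 0.19 without siMnt replicate 3. Saa3 was at 17.5, 117 and 19.4 in siNTC and 151, 247 and 46.6 in siMnt (mean 51.4 ± 57.2 and 148 ± 100.3, log2 fold change 1.78 ± 0.81). The groups overlapped, but within numbers 1, 2 and 3 the siMnt library was above its control by 3.04, 1.07 and 1.22 on the log2 scale. Replicate 2 was the highest of both groups for both genes. Of the 10 genes, 5 were higher in siMnt without overlap, 3 were lower and 2 overlapped, beside 15.6% and 15.9% of all tested genes that were higher and lower without overlap. As the genes were chosen on these values, nothing is read from that count.

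Per kilobase, the order of mean levels differed between the groups. In siNTC it was Gc (2244 ± 799), Orm1 (1774 ± 270), Lcn2 (1006 ± 756), Orm3 (542 ± 219), Orm2 (108 ± 52.9), Saa3 (92.6 ± 103), Hp (84.3 ± 77.1), Fgb, Fga and Fgg. There the ranges of mean ± SD of neighbours in this order overlapped, except between Orm3 and Orm2. In siMnt the order was Gc (5968 ± 444), Orm1 (979.8 ± 119), Lcn2 (817 ± 457), Hp (687 ± 188), Fgb, Saa3 (267 ± 181), Orm3 (175 ± 38.9), Fga, Fgg and Orm2 (10.9 ± 6.10). Here neighbours overlapped in the same sense, except between Gc and Orm1, between Fgb and Saa3 and between Fga and Fgg.

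The family members outside the set that were read were scarce. The liver serum amyloids Saa2 and Saa4 had at most 6 reads in any library, and the fibrinogen-like Fgl1 had at most 7. Haemopexin (Hpx), not a family member, binds free haem as haptoglobin binds haemoglobin. Hpx was at 350, 610 and 1786 in siNTC and 1898, 1822 and 2190 in siMnt. Its controls had the same order as those of Hp, and replicate 3 came close to the siMnt libraries (log2 fold change 1.44 ± 0.50, adjusted p = 0.137 by limma, 0.0204 with the replicate block).

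The genes whose pattern over the 6 libraries was most like each of the 10 were found by the root mean square distance between log2 values centred on their means. For Fgb these were Glod5 (0.11) and C9 (0.17), C9 being a complement component that liver secretes. For Fga they were Muc20 (0.15) and Glod5 (0.15), for Hp Muc20 (0.15) and Cybb (0.24), for Fgg Muc20 (0.32) and Ppp1r9a (0.32), and for Gc Gm36738 (0.11) and the protease Ctse (0.11). The distance between Fga and Fgb was 0.20 and between Fga and Hp 0.25, so some of the 10 were nearly as close to each other. Muc20, a mucin of epithelial surfaces, was at 7.86, 19.9 and 59.4 in siNTC and 267, 219.6 and 207 in siMnt, the same order of controls as Fga. Orm1 was nearest to Ifi202b (0.07) and 2810029C07Rik (0.09), Orm2 to Prr9 (0.13) and Iglon5 (0.38), and Orm3 to Upp1 (0.18) and Acsbg1 (0.22). Lcn2 was nearest to Gadd45b (0.24) and Otub2 (0.26), and Saa3 to Alox8 (0.35) and the chemokine Ccl20 (0.37).

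The genes beside these 10 on their chromosomes were read in the same way. Of 24 protein-coding neighbours, up to 2 on each side by RefSeq order, 17 were in the table and 15 were tested. By limma 0 passed, with or without the replicate block, 1 had an unadjusted p under 0.05, and edgeR and DESeq2 called 0 each. Their log2 fold changes ran from -0.38 (Slc25a25, a mitochondrial carrier near Lcn2) to 1.01 (Kif12, a kinesin near Orm1, at 88.2, 161 and 636 in siNTC and 312.5, 444 and 542 in siMnt). Plrg1, a splicing factor next to Fgb, was at -0.29 ± 0.17. The DEAH-box gene Dhx38 and the spliceosome gene Txnl4b on one side of Hp were at -0.03 and 0.18, and Dhodh, an enzyme of pyrimidine synthesis on the other, at 0.34. Col27a1 and Akna, which flank the orosomucoid cluster, were at 0.04 and -0.01, and the bicarbonate transporter Slc4a4 beside Gc was at 0.02.

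**Figure D4:**
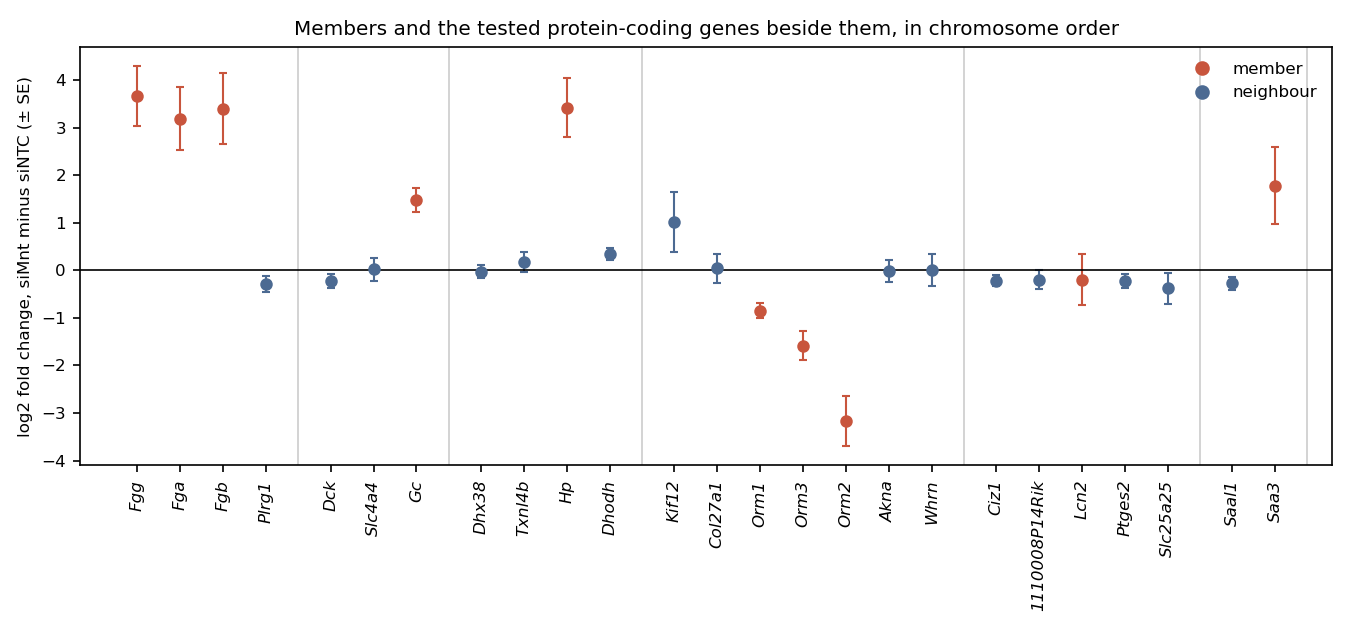
Log2 fold changes (siMnt minus siNTC, ± SE) are drawn for the 10 genes and the tested protein-coding genes beside them, in chromosome order. The neighbours lie between -0.38 and 1.01, while the fibrinogen genes lie above 3.

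Other genes of the same pathways were taken as lists, whose members overlap in part and were listed by known role. Of 23 tested other acute-phase proteins 2 rose, 1 fell and 20 did not pass by limma, with a median log2 fold change of 1.25 against -0.01 over all tested genes. Serping1, the C1 inhibitor, rose from 8.80 ± 0.92 to 32.4 ± 4.96 (limma adjusted p = 0.0343, log2 fold change 1.76 ± 0.33). It had few reads, 9, 8 and 15 in siNTC and 35, 26 and 23 in siMnt, and was tested through the siMnt libraries alone. Vnn1, a pantetheinase, rose from 1497 ± 265 to 4941 ± 1340.3 (limma adjusted p = 0.0168, log2 fold change 1.70 ± 0.23), and the metalloreductase Steap4 fell from 433 ± 133 to 114 ± 60.8 (limma adjusted p = 0.0434, log2 fold change -2.03 ± 0.42). The replicate block gave 11 higher and 2 lower, and leaving out siNTC replicate 3 gave 14 and 2, beside 15.9% and 16% of all tested genes that passed in those fits. The genes added by the block, picked out once their values had been seen, were the alpha-1-antitrypsins Serpina1a, Serpina1c and Serpina1d, Hpx, complement genes Cfb, C3, C1s1 and C1ra, angiotensinogen (Agt) and, lower, the interleukin 1 receptor antagonist Il1rn. C3, the central complement component, was at 6758, 9729 and 31688 in siNTC and 29660, 27901 and 33736 in siMnt, so control replicate 3 lay within the siMnt range (adjusted p = 0.177, limma; 0.0312 with the block). The Serpina1 genes are near-identical copies, and their single values are uncertain. Without siNTC replicate 2 only 1 of the list passed, and without siMnt replicate 3, 2 passed.

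Of 11 tested negative acute-phase and other liver plasma proteins 2 rose, 0 fell and 9 did not pass (median log2 fold change 1.37). By limma 18.2% of the list passed, beside 2.56% of all tested genes higher and 1.37% lower. Rbp4, the plasma retinol carrier, rose from 5968 ± 3380 to 15648 ± 1036 (limma adjusted p = 0.0486, log2 fold change 1.53 ± 0.34), and Serpina7, the thyroxine-binding globulin, rose from 101 ± 72.4 to 485 ± 39.2 (limma adjusted p = 0.0268, log2 fold change 2.48 ± 0.42). With the block 4 rose (36.4%), transferrin (Trf) and apolipoprotein B (Apob) being added, and without siNTC replicate 3, 7 rose. Over all tested genes 15.9% and 16% passed in those fits. Leaving out siNTC replicate 2 or siMnt replicate 3 left 0, with 5 at an unadjusted p under 0.05 each. Of 17 hepatocyte markers 9 were in the table, several of them, Apob and the Serpina1 genes among them, also on these lists. Their summed level, mostly Apob, Hnf4a, Serpina1a and Serpina1b, was 3722 to 12627 in siNTC, highest in replicate 3, and 13317 to 17211 in siMnt. Of the 6 tested 0 passed by limma (2 at an unadjusted p under 0.05; edgeR and DESeq2 0 each), and 2, Apob and Serpina1a, rose with the block. Markers too low to be tested differed among themselves. Apoa1 was at 0.87, 0 and 5.17 in siNTC and 10.8, 7.16 and 20.8 in siMnt, without overlap. Transthyretin (Ttr) had 0, 0 and 1 reads in siNTC and 4, 5 and 0 in siMnt, and Apoa2 was at 5.24 or less throughout. The hepatocyte nuclear factor Hnf4a was at 1403 to 3722 in siNTC and 2711 to 3519 in siMnt. Of the tested markers on neither list, Hnf4a, the aminotransferase Tat and the cytochrome Cyp2e1 differed by 0.50, 0.61 and -0.09 on the log2 scale and did not pass (limma adjusted p = 0.38, 0.498 and 0.922). Albumin (Alb) was not analysed here. The part of other cell types in these results was not tested.

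**Figure D5:**
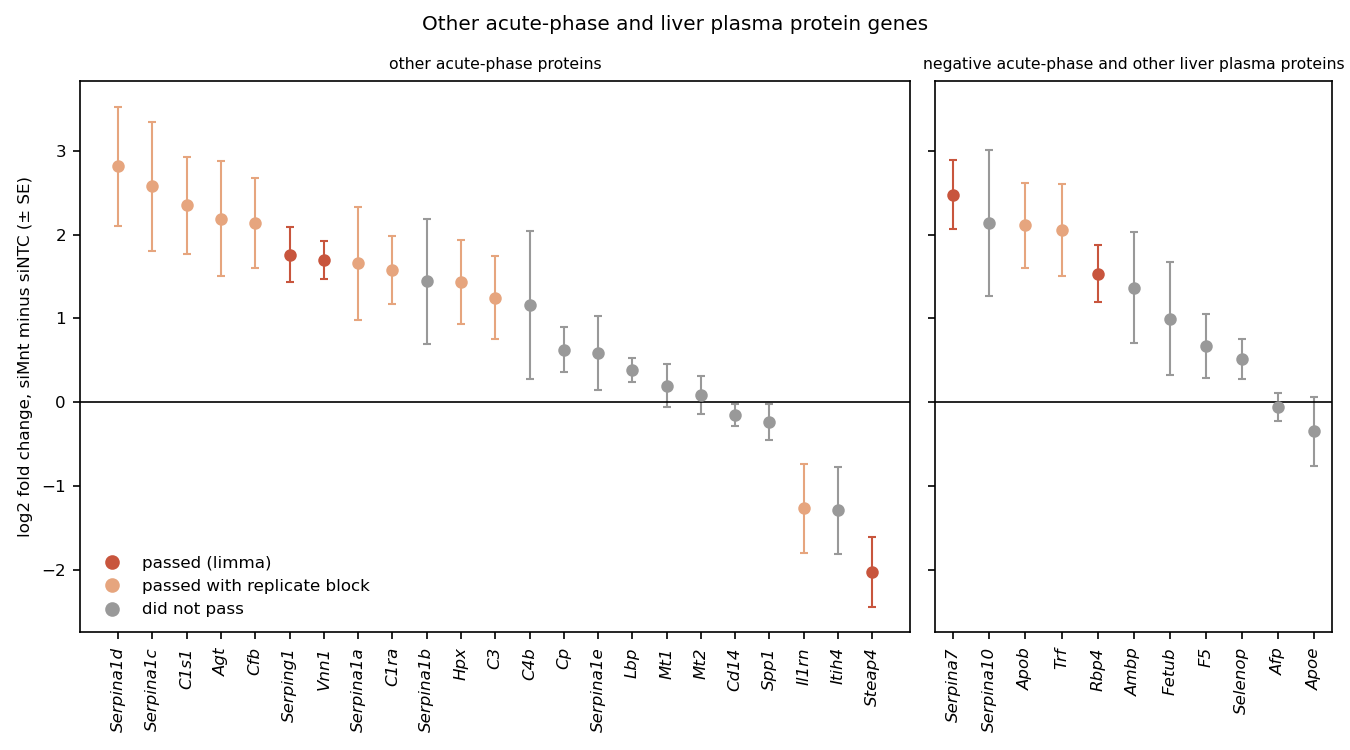
Log2 fold changes (siMnt minus siNTC, ± SE) of the tested other acute-phase and liver plasma protein genes are drawn by list and coloured by whether they passed by limma, passed with the replicate block or did not pass. Most points lie above 0, and the medians were 1.25 and 1.37.

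The signalling routes to the acute-phase genes were read in the same way. Of 30 tested genes of the IL-6 family, gp130 and STAT3 signalling 1 rose and 2 fell, 10% of the list beside the 2.56% and 1.37% of all tested genes (median log2 fold change 0.19). Lifr, the receptor for leukaemia inhibitory factor, rose from 3.47 ± 2.35 to 36.5 ± 18.9 (adjusted p = 0.035, limma). It had few reads, 4, 1 and 9 in siNTC and 53, 17 and 26 in siMnt, and was tested through the siMnt libraries alone. With a mean of at least 50 required, 0 of the list rose. The cytokine Il11 fell from 3152 ± 2048 to 214 ± 65.0 (adjusted p = 0.0264, limma). With the block 4 rose and 7 fell, 36.7% of the list beside 15.9% of all tested genes. Stat3, picked out once its values had been seen, was at 3599, 3011 and 5464.5 in siNTC and 6335, 5946 and 6417 in siMnt (log2 fold change 0.68 ± 0.21, adjusted p = 0.101, limma; 0.0204 with the block). The list had 1 passing gene when siNTC replicate 2 or siMnt replicate 3 was left out and 9 when siNTC replicate 3 was. Il6 itself had at most 4.77 normalised reads in any library.

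Of 34 tested genes of IL-1, TNF and NF-kB signalling 0 passed by limma (8 at an unadjusted p under 0.05; edgeR 0, DESeq2 3), with a median of -0.01. With the block 2 rose and 2 fell, 11.8% of the list beside 15.9% of all tested genes. It was 2 and 2 when siNTC replicate 3 was left out, beside 16% of all tested genes. The alarmin Il33 was at 25722 ± 10125 and 44325 ± 2093 (adjusted p = 0.0925, limma; 0.0283 with the block), and the kinase Chuk at 22832 ± 1738 and 19868 ± 1132 (adjusted p = 0.39, limma). Of 22 tested C/EBP, hepatocyte nuclear and related factors 0 passed by limma (9 at an unadjusted p under 0.05, edgeR 0 and DESeq2 4), against 6 higher and 2 lower under the block and 7 and 1 when siNTC replicate 3 was left out. Under the block 36.4% of this list passed. The factors Onecut2 and Tef were at 3352 ± 1534 and 2813 ± 856 in siNTC and 4637 ± 1330.4 and 4947 ± 51.4 in siMnt (adjusted p = 0.404 and 0.0656, limma; 0.0457 and 0.0134 with the block). Cebpb, the C/EBP factor of the interleukin 6 response, was at 965 ± 122 and 931 ± 40.3 (log2 fold change -0.04 ± 0.13), and Cebpd at 10.2 ± 3.63 and 35.5 ± 18.9 (adjusted p = 0.109, limma; 0.0305 with the block), both picked out once their values had been seen. Of 19 tested glucocorticoid receptor and target genes 1 rose, Hsd11b1, which regenerates active glucocorticoid (from 858 ± 326 to 2174 ± 502, adjusted p = 0.0473, limma), and with the block 5 rose and 2 fell. Of this list 5.26% passed by limma, beside 2.56% of all tested genes higher and 1.37% lower, and 36.8% with the block. When siNTC replicate 3 was left out 4 rose and 3 fell. The Hsd11b1 call was lost in limma with no variance trend, which gave 0 higher and 1 lower. It was also lost on leaving out siNTC replicate 2 or siMnt replicate 3, where 10 and 4 of the list had an unadjusted p under 0.05, and by edgeR, which called 0 (7 unadjusted).

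Partners of the plasma proteins were also read by list. Of 25 tested genes of coagulation, fibrinolysis and fibrinogen binding 2 rose, both from few reads and both receptors of leukocyte adhesion that bind fibrinogen: Icam1 (from 8.74 ± 1.10 to 34.7 ± 9.05, adjusted p = 0.0366, limma) and the integrin Itgam (from 6.02 ± 2.1 to 23.9 ± 5.34, adjusted p = 0.0493, limma). Both were tested through the siMnt libraries alone. With a mean of at least 50 required, 0 of the list passed (9 at an unadjusted p under 0.05). The share that passed by limma was 8%, beside 2.56% of all tested genes higher and 1.37% lower. With the block 4 rose and 6 fell, 40% of the list beside 15.9% of all tested genes. Itgam is also 1 of 16 myeloid markers, of which 9 were in the table, with a sum of 2219 to 2822 in siNTC and 3409 to 3553 in siMnt. Of the 6 tested, Csf1r (log2 fold change 1.09, limma adjusted p = 0.0242) and Itgam rose by limma. Spi1 and Fcgr3 were at 1.45 and 1.17, Cd14 and Cd68 at -0.15 and -0.19, and none of these passed by limma. With the block 3 rose, Spi1 being added (adjusted p = 0.0439), and 4 had an unadjusted p under 0.05 by limma (edgeR 2 called, DESeq2 3). Lyz2, too low to be tested, was at 3.49, 3.32 and 1.94 in siNTC and 11.9, 8.35 and 4.90 in siMnt. Ly6g was also too low, and its groups overlapped. The leukocyte marker Ptprc was at 1.29 to 6.65 in all 6 libraries. The part of such cells in the result was not tested. Of 25 tested genes of haptoglobin, haem, iron and siderophore handling Blvrb, a biliverdin reductase, rose from 446 ± 35.7 to 1025 ± 137 (adjusted p = 0.0155, limma), and Mmp9 fell from 153 ± 82.3 to 8.08 ± 1.43 (adjusted p = 0.0162, limma). Mmp9 was tested through the siNTC libraries alone. Of this list 8% passed by limma. With the block 5 rose and 2 fell, 28% of the list. Of 11 tested vitamin D genes 1 rose, the actin-severing gelsolin Gsn, which clears actin with Gc (from 12965 ± 1068 to 18963 ± 749, adjusted p = 0.0493, limma), and 4 rose with the block, including the uptake receptors Lrp2 and Cubn. These were 9.09% of the list by limma and 36.4% with the block. When siNTC replicate 2 was left out 0 coagulation and 0 vitamin D genes passed (4 and 6 unadjusted), as when siMnt replicate 3 was (7 and 5 unadjusted). When siNTC replicate 3 was left out 10 coagulation, 5 haptoglobin and iron and 2 vitamin D genes passed, beside 16% of all tested genes.

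Epithelial antimicrobial and secreted defence genes had the highest share that passed among the 11 lists by limma without the block, 50% of 8 tested genes; with the block the other acute-phase list was higher, at 56.5%, and when siNTC replicate 3 was left out, 16 of its 23 tested genes passed. Of the 8 defence genes 4 rose and 0 fell, with and without the block and without siNTC replicate 3. S100a8, a calprotectin subunit, rose from 46.7 ± 8.71 to 126 ± 8.02 (limma adjusted p = 0.0242, log2 fold change 1.43 ± 0.23), the chitinase-like Chil1 from 20.9 ± 15.8 to 218 ± 124 (limma adjusted p = 0.0368, log2 fold change 3.33 ± 0.64) and the mucin Muc4 from 100.4 ± 85.6 to 708 ± 176 (limma adjusted p = 0.0264, log2 fold change 3.11 ± 0.52). The other gene that rose was the mucin Muc1, picked out once its values had been seen. Without siNTC replicate 2, 3 passed, and without siMnt replicate 3, 1 passed. Of 15 tested mammary secretory and involution genes 1 fell, clusterin (Clu, from 35965 ± 7451 to 19942 ± 1336, adjusted p = 0.0433, limma), and with the block 2 rose and 3 fell, against 2 and 2 when siNTC replicate 3 was left out. Without siMnt replicate 3 its call was lost (3 of the list at an unadjusted p under 0.05). Markers of mammary luminal cells, led by the keratins Krt8 and Krt18, had a summed level of 114116 to 141164 in siNTC and 126432 to 137860 in siMnt, with 0 of 5 tested passing by limma (2 at an unadjusted p under 0.05; edgeR and DESeq2 0 each) and 1 with the block. Basal and myoepithelial markers, of which 6 of 8 were in the table, summed to 2134 to 2700 in siNTC and 378 to 754 in siMnt. That sum was mostly calponin (Cnn1), the 1 of 4 tested that fell (log2 fold change -2.42, limma adjusted p = 0.0155). Krt17 and Acta2 were at -3.30 and -1.05 and did not pass by limma, and Krt17 fell with the block (adjusted p = 0.0169). Krt5 went the other way, at 24.5, 27.7 and 36.8 in siNTC and 43.2, 43.0 and 45.3 in siMnt (log2 fold change 0.57, limma adjusted p = 0.256). Adipocyte markers, of which 4 of 9 were in the table, summed to 197 to 304 in siNTC and 419.5 to 494 in siMnt, mostly Lipe. By limma 1 of them, Fabp4, rose (3 at an unadjusted p under 0.05, edgeR 1 and DESeq2 3). Fabp4 was at 6.11, 13.3 and 7.75 in siNTC and 68.1, 71.6 and 46.6 in siMnt. It was tested through the siMnt libraries alone, as was Pparg. With the block 3 of these markers rose, Pparg and Lipe being added. In none of the 11 lists did a gene pass when siNTC replicate 1, siMnt replicate 1 or siMnt replicate 2 was left out.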

How the data were processed

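RNA was extracted with Trizol and sequenced after standard Illumina library preparation, per the labels' protocols. TopHat2 2.1.0, DESeq2 and build mm9 are named in the submitters' processing notes; the sources used here do not give the tool that counted reads, its annotation or its strand setting. Normalised values per gene, a signal of 0 or more, were deposited by the authors in a single table. Whole reads could be recovered from these deposited values with one scaling factor for each library: 99.7% of those above 0 were whole to within 0.05 read. One factor per library cannot remove trends with GC content or transcript length.

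The 10 genes, the lists and the tests were chosen with earlier results of these data known. Samples were grouped, and replicates numbered, by their titles. Values were taken as log2(value + 1), which understates the change of genes near 0. Genes with a mean under 10 were left out (1958), and the other 12568 were tested on all 6 libraries with limma 3.58.1 (R 4.3.3), empirical Bayes with a trend and no block, and a threshold of 0.05 after Benjamini-Hochberg adjustment over all of them. An exact permutation test of 1 value cannot go below p = 0.1 with 3 against 3 libraries, and none is used for the 10 genes. Genes named in the text are the 10, Mnt, family paralogues of the 10 in the table, Hpx and the 2 genes most like each of the 10. From each list come the 3 smallest adjusted p among its passing members or, where none passed, its 2 most expressed members. Neighbours, markers and genes said to be chosen after their values were seen come in addition.

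Deviations from the group means correlated across genes at 0.28, 0.50 and 0.35 between libraries of the same number and at -0.38 to 0.03 between others, so the numbers were taken to pair the libraries. This pairing rests on the data and on the titles' numbers, whose meaning the labels do not state. A blocked fit, with the replicate number as a term, has 2 residual degrees of freedom, against 4. No libraries were copies of each other (mean chi-square per gene of at least 15.2 between replicates).

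The alternatives changed the pseudocount, filter, scaling or variance trend, added the block, left out single libraries, or used edgeR 4.0.16 and DESeq2 1.42.0 on recovered reads. A correction for GC content and length (GENCODE M21, matched for 98.8% of tested genes), also with the block, was chosen after seeing the data. Lengths, transcript identity and runs of 50 bases used GENCODE M21 transcript models (Biopython 1.88), and gene order and promoters used RefSeq on GRCm38.p6, a different build from that of the files, so no deposited value was placed by coordinates. List members absent from the table were not analysed here, and the values of some single list genes are not reported here. The scripts (Python 3.11.15, pandas 2.3.3) were tested on simulated data.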

Additional observations from a re-analysis of the deposited data

How the results depend on the processing

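All of the 10 genes other than Lcn2 kept their direction under every alternative run. Their log2 fold changes ranged from 2.43 to 3.98 for Fga, 2.50 to 4.32 for Fgb, 2.39 to 4.15 for Fgg, 2.73 to 4.15 for Hp and 1.19 to 1.73 for Gc. The ranges were -0.94 to -0.73 for Orm1, -3.56 to -2.67 for Orm2, -1.74 to -1.27 for Orm3, 1.26 to 2.65 for Saa3 and -0.62 to 0.38 for Lcn2. Fgg was lowest with a pseudocount of 5, since its controls hold 0 to 6 reads; a mean of at least 50 leaves out Fgg and Orm2. The alternatives for Lcn2 with the opposite sign, 0.38 and 0.19, were those without siNTC replicate 2 and without siMnt replicate 3.

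The fit with the replicate block called 1998 genes in place of 494. Of the lists, 13 other acute-phase, 4 liver plasma, 11 IL-6, 4 IL-1 and NF-kB, 8 C/EBP and hepatocyte factor, 7 glucocorticoid, 10 coagulation, 7 haptoglobin and iron, 4 vitamin D and 5 mammary secretory genes passed. Without it the counts, in that order, were 3, 2, 3, 0, 0, 1, 2, 2, 1 and 1. The block left the antimicrobial count at 4, and it changed no other count of a list. Under the block with GC and length correction 2472 genes passed, and the lists gave 11, 4, 11, 9, 8, 8, 10, 8, 4 and 7. Directions differed there: 1152 genes were higher and 1320 lower, against 1173 and 825 with the block alone, the C/EBP list had 3 higher and 5 lower against 6 and 2, and the IL-1 list 2 and 7 against 2 and 2. The correction alone gave 1009 genes, 5 of the IL-6 list and 2 each of the IL-1, C/EBP and glucocorticoid lists. DESeq2 called 1457 genes and 5 other acute-phase, 7 IL-6, 3 IL-1, 4 C/EBP, 3 glucocorticoid, 8 coagulation, 7 haptoglobin and iron, 4 vitamin D and 3 mammary genes. A mean of at least 50 gave 322 genes, 1 each of the acute-phase and liver plasma lists, and 0 of the glucocorticoid, coagulation and vitamin D lists (6, 9 and 4 at an unadjusted p under 0.05). Without a variance trend limma gave 306 genes, 1 liver plasma, 0 vitamin D, 2 antimicrobial and 0 mammary genes (5 vitamin D and 4 mammary genes unadjusted). edgeR called 1 liver plasma, 0 glucocorticoid and 0 vitamin D genes (7 and 5 unadjusted). Upper quartile scaling gave 1 IL-1 gene, a pseudocount of 0.5 gave 1 coagulation and 0 vitamin D genes, and no filter gave 0 vitamin D genes (5 unadjusted in both).

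When each library was left out in turn, limma called 0 to 2012 genes over all, 0 to 16 other acute-phase, 0 to 7 liver plasma, 0 to 9 IL-6, 0 to 4 IL-1, 0 to 8 C/EBP, 0 to 7 glucocorticoid, 0 to 10 coagulation, 0 to 5 haptoglobin and iron, 0 to 2 vitamin D, 0 to 4 antimicrobial and 0 to 4 mammary genes. The most were called without siNTC replicate 3. No other count moved by over 1.5 times, and the cause of these shifts was not tested. Depth limits Fgg and Orm2, which had 0 to 30 and 3 to 114 reads per library. Libraries number 3 per group, and the split of reads between the orosomucoids or the Serpina1 genes cannot be checked from the table.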
